A study of Mus musculus with 14 samples.

Results

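The 8 genes described here are targets of PPARA that serve the burning of fatty acids in liver: Pdk4, Cpt1a, Acot1, Acot2, Ehhadh, Cyp4a10, Cyp4a14 and Vnn1. They were chosen by name, with earlier results of these data known, so their counts beside all genes are descriptions. A probe was assigned to a gene when its RefSeq accession belonged to that gene. In the liver channel each of the 8 was well above background on 14 of 14 arrays, and they are 8 of the 21976 genes tested. At 8 mg/kg furan, Pdk4 and Acot2 rose, by 1.80-fold and 1.54-fold, and the other 6 genes did not pass the test. Each of these 2 calls was lost in 12 of 28 refits with other processing or without some arrays. At 1 mg/kg furan none of the 8 passed it.

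PPARA is a nuclear receptor that binds fatty acids and pairs with RXR on DNA, and in liver it switches on fatty acid oxidation, above all during fasting. Its targets bring fatty acids into mitochondria, oxidise them in mitochondria and peroxisomes, hydroxylate them at the omega end in the endoplasmic reticulum, and manage the coenzyme A they are bound to. Cyp4a10 and Cyp4a14 are commonly read as markers of PPARA activation in mouse liver, whereas Pdk4 is also known to answer to glucocorticoids and to insulin withdrawal.

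Livers came from female B6C3F1 mice, aged 5 to 6 weeks when obtained, that were gavaged with furan or with corn oil for 21 days and sampled 4 h after the last dose. The groups were 4 control mice given corn oil alone, 5 mice given 1 mg/kg furan and 5 mice given 8 mg/kg furan, and all 14 drank BrdU, a label of dividing cells, for the last 5 days. Liver RNA was labelled with Cy5 and hybridised with Cy3-labelled universal mouse reference RNA on 2-colour Agilent arrays, so every level below is a log2 ratio of liver over reference RNA for a probe. The labels describe the replicates of a group as biological replicates, 1 array each.

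The 14 arrays lay on 5 slides, of which 4 held all 3 groups and the fifth held 1 mouse of each furan dose, and the slide entered every fit as a block. Between 41.4% and 53.6% of probes were well above background per array. The number of arrays limits the precision, and in whole liver a smaller number of cells of one type and less RNA per cell cannot be told apart. All 12 hepatocyte markers examined were measured, and their mean log2 ratio ranged over 6.49 to 7.88 in 8 mg/kg livers, 6.48 to 8.16 in 1 mg/kg livers and 6.48 to 8.07 in control livers, with the highest value of each group on slide 3. Of these 12 only Cps1 differed, being lower at 8 mg/kg than in controls by 0.34 on the log2 scale (limma, adjusted p = 0.0335), a call that held in 10 of 28 alternatives, which were other processing settings and fits that left out arrays.

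Promoters are shown for the genes that rose, for Acot1, which lies next to Acot2 on chromosome 12, and for Cpt1a, whose window held a receptor half-site. Of the 8 genes, 5 had an entry in the RefSeq promoter table of GRCm38.p6 (Pdk4, Acot1, Acot2, Cpt1a and Ehhadh). The 250 bases before the start that the promoter table uses are printed 5′ to 3′ on the strand of the gene, with AGGTCA (or its reverse complement TGACCT) and CCAAT (or ATTGG) in capitals. For Cpt1a that start is not the outermost one, and the window lies inside the span of the annotated gene, which begins at position 3322326 of chromosome 19.
Pdk4, chr6:5496279-5496528, minus strand: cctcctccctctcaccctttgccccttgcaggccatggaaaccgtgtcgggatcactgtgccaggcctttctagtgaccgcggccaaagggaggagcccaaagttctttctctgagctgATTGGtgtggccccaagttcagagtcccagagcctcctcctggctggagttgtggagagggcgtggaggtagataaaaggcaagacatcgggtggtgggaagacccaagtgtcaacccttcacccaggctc
Acot2, chr12:83987611-83987860, plus strand: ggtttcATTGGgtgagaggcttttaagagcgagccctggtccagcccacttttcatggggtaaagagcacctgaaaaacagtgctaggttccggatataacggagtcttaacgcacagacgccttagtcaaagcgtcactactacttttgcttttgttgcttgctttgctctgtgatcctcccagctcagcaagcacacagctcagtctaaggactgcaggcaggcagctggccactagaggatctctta
Acot1, chr12:84009252-84009501, plus strand: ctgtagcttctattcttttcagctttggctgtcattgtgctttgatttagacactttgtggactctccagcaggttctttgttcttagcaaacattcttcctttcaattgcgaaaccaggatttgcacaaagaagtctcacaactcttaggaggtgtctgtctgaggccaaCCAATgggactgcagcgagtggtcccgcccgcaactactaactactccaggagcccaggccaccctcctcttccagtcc
Cpt1a, chr19:3323051-3323300, plus strand: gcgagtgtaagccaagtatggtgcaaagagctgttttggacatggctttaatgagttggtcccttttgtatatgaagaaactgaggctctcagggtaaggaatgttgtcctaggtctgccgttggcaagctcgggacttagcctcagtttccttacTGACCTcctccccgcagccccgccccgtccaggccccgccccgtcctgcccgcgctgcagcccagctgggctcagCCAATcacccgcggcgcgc

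PPARA and RXR bind as a pair to 2 copies of the half-site AGGTCA separated by a single base. The full repeat AGGTCANAGGTCA, searched on both strands, was in 10 of 27025 promoters (0.037%) and in none of these 5. A single AGGTCA was in 13.8% of promoters and, among the 5, only in that of Cpt1a, 94 to 89 bases before the start that the table uses. A looser repeat, AGNNCANAGNNCA, was in 2.28% of promoters and, among the 5, only in that of Acot2, 58 to 46 bases before the start. CCAAT was in 34.5% of promoters and in 5 of the 5, and TATAAA in 13% and in none of the 5. These are matches of letters within 250 bases and say nothing of binding.

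Pdk4 encodes the kinase that shuts off pyruvate dehydrogenase, so that glucose carbon is spared while fatty acids are burned. Its log2 ratios were 2.98, 2.19, 1.73, 1.86 and 1.42 in 8 mg/kg livers, against 1.13, 1.18, 1.504 and 1.08 in control livers. One 8 mg/kg liver, replicate 5 at 1.42, lay below the highest control, so the groups overlapped, and replicate 1 at 2.98 was the highest of all 14. The mean was 2.04 ± 0.60 in 8 mg/kg livers (SD, n = 5) and 1.22 ± 0.19 in control livers (SD, n = 4). With slide as a block the difference was 0.85 ± 0.20 (SE; limma, adjusted p = 0.0308), with a 95% interval of 0.42 to 1.27. Pdk4 was higher at 8 mg/kg on 4 of the 4 slides that held both groups, by 1.85, 0.24, 0.69 and 0.78 on slides 1 to 4.

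The Pdk4 call depended on single arrays. Without 8 mg/kg replicate 1 the difference was 0.57 (adjusted p = 0.0509). It was 0.83 without 8 mg/kg replicate 2 (0.0629), 0.66 without control replicate 1 (0.126), 0.94 without control replicate 3 (0.0525) and 0.83 without control replicate 4 (0.0766), where the value in brackets is the adjusted p from limma. The adjusted p over all 14 omissions ranged over 0.0188 to 0.126, and 9 of the 14 kept the call. Those 9 include all 5 omissions of a 1 mg/kg liver, a group that enters this comparison only through the shared fit.

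Acot2 encodes the mitochondrial acyl-CoA thioesterase, which frees fatty acids from coenzyme A inside mitochondria. Its log2 ratios were 0.28, 0.28, 0.35, 0.31 and 0.94 in 8 mg/kg livers, against 0.29, -0.16, -0.64 and -0.30 in control livers. Control replicate 1 lay among the 8 mg/kg livers, and the other 3 controls lay below all of them. The mean was 0.43 ± 0.28 in 8 mg/kg livers (SD, n = 5) and -0.20 ± 0.39 in control livers (SD, n = 4). The difference was 0.63 ± 0.15 (SE; limma, adjusted p = 0.0348), with a 95% interval of 0.30 to 0.95. By slide it was -0.01, 1.09, 0.92 and 0.62 on slides 1 to 4, so 3 of 4 slides were higher at 8 mg/kg.

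The Acot2 call was also lost on leaving out single arrays, with adjusted p of 0.112, 0.129 and 0.0735 without control replicate 2, 3 or 4, and of 0.069, 0.0676 and 0.108 without 8 mg/kg replicate 2, 4 or 5 (limma). The differences in those 6 fits were 0.53, 0.50, 0.65, 0.62, 0.62 and 0.51. Over all 14 omissions the adjusted p ranged over 0.00615 to 0.129, and 8 of the 14 kept the call. Those 8 likewise include all 5 omissions of a 1 mg/kg liver, a group outside this comparison. In the liver channel alone, without the reference, the Acot2 difference was 0.99 (adjusted p = 0.041), against adjusted p of 0.00615 to 0.259 over its 28 alternatives. The size of the Acot2 difference varied with the processing. It was 0.77 with a smaller background offset of 16 (limma, adjusted p = 0.0609) and 0.96 with the scanner's processed signals (limma, adjusted p = 0.0873).

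Acot1 is the cytosolic thioesterase, a close paralog of Acot2, and the probes of such paralogs can hybridise with each other's transcripts. Acot1 had log2 ratios of 1.99, 2.51, 2.45, 2.53 and 3.24 in 8 mg/kg livers, against 3.06, 2.94, 1.90 and 2.64 in control livers. The groups overlapped through most of their range. The difference was -0.11 ± 0.30 (SE; limma, adjusted p = 0.874), and its 95% interval, -0.76 to 0.53, held changes of either sign. On slide 1 the 8 mg/kg liver differed from the control by -1.07 for Acot1, the same slide on which Pdk4 was 1.85 above it.

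**Figure D1:**
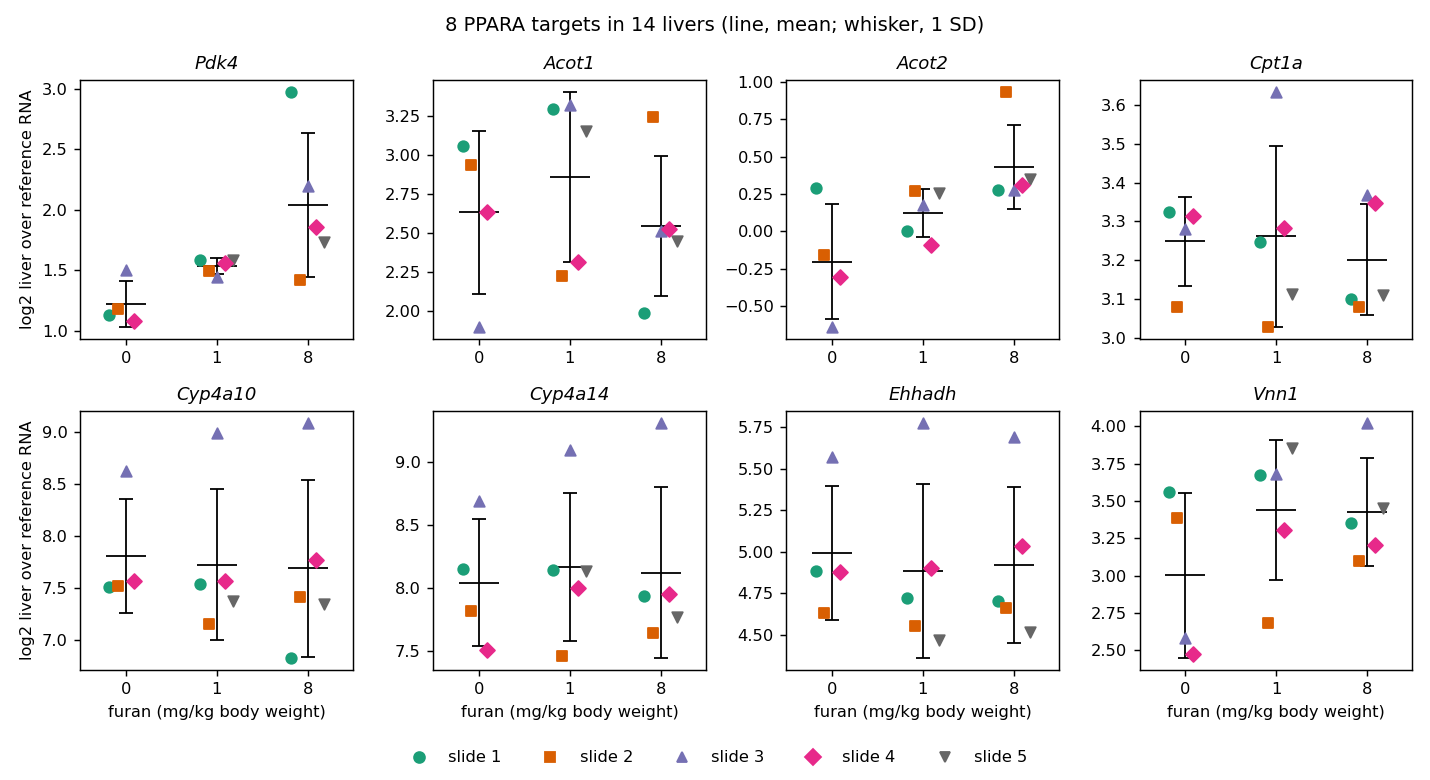
Log2 ratio of liver over reference RNA (y axis) in each of 14 mice by furan dose in mg/kg body weight (x axis), with a panel for each gene; symbols mark the slide, the line is the mean and the whisker 1 SD. Pdk4 and Acot2 lie higher at 8 mg/kg, and in Cyp4a10, Cyp4a14 and Ehhadh the 3 arrays of slide 3 lie above the others at every dose.

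Cpt1a encodes the carnitine palmitoyltransferase of the outer mitochondrial membrane, the entry step for long-chain fatty acids. Its log2 ratios were 3.099, 3.37, 3.11, 3.35 and 3.08 in 8 mg/kg livers, against 3.32, 3.08, 3.28 and 3.31 in control livers. Both groups covered nearly the same span. The difference was -0.02 ± 0.09 (SE; limma, adjusted p = 0.935), with a 95% interval of -0.21 to 0.17, the narrowest but one of the 8. A second Cpt1a probe gave -0.14 ± 0.11 (SE).

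Ehhadh encodes the peroxisomal bifunctional enzyme, which hydrates and dehydrogenates fatty acyl chains. Its log2 ratios were 4.71, 5.69, 4.52, 5.03 and 4.66 in 8 mg/kg livers, against 4.89, 4.63, 5.57 and 4.88 in control livers. The highest value in each group came from the array on slide 3. With slide as a block the difference was 0.03 ± 0.08 (SE; limma, adjusted p = 0.864), with a 95% interval of -0.15 to 0.21.

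Cyp4a10 and Cyp4a14 encode microsomal cytochromes P450 that hydroxylate the omega end of fatty acids, and they are close paralogs on chromosome 4. Cyp4a10 had log2 ratios of 6.83, 9.09, 7.35, 7.77 and 7.42 in 8 mg/kg livers, against 7.51, 7.52, 8.63 and 7.57 in control livers. Cyp4a14 had log2 ratios of 7.93, 9.31, 7.77, 7.95 and 7.65 in 8 mg/kg livers, against 8.15, 7.82, 8.69 and 7.51 in control livers. In both genes the groups overlapped and the slide 3 arrays were the highest. The difference was -0.03 ± 0.15 for Cyp4a10 (SE; limma, adjusted p = 0.937) and 0.13 ± 0.14 for Cyp4a14 (SE; limma, adjusted p = 0.665). The 95% intervals, -0.36 to 0.29 for Cyp4a10 and -0.18 to 0.43 for Cyp4a14, leave out a 2-fold change in either direction. The other probes of Cyp4a10 gave differences of 0.10 and -0.01.

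Vnn1 encodes a pantetheinase, which recycles the vitamin part of coenzyme A. Its log2 ratios were 3.35, 4.02, 3.45, 3.21 and 3.095 in 8 mg/kg livers, against 3.56, 3.39, 2.58 and 2.48 in control livers. A pair of controls lay below every 8 mg/kg liver and the other pair lay among them. The difference was 0.37 ± 0.24 (SE; limma, adjusted p = 0.412), and by slide it was -0.21, -0.29, 1.44 and 0.73 on slides 1 to 4.

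**Figure D2:**
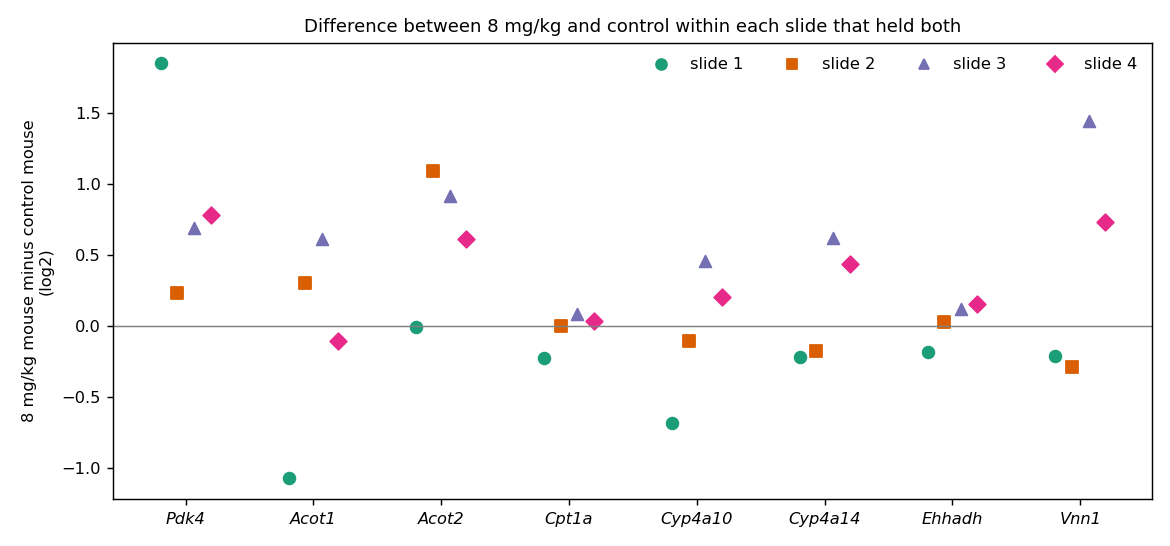
Log2 ratio of the 8 mg/kg mouse minus that of the control mouse (y axis) on each of the 4 slides that held both, for each gene (x axis). Pdk4 lies above 0 on 4 of 4 slides and Acot2 on 3 of 4, and slide 1 gives the highest Pdk4 value, 1.85, and the lowest Acot1 value, -1.07.

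Of the 8 genes, 2 passed the test at 8 mg/kg against control and both were higher, beside 4.09% of all genes tested (898 of 21976, with 2.73% higher and 1.36% lower). By the liver channel alone the split was 411 higher and 443 lower, in place of 599 higher and 299 lower. The same 2 of 8 had an unadjusted p under 0.05, beside 20.3% of all genes. The groups did not overlap for 0 of the 8, beside 5.59% of genes. The median log2 difference was 0.08 over the 8 genes and 0.0018 over all genes.

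At 1 mg/kg, Pdk4 had log2 ratios of 1.59, 1.59, 1.49, 1.44 and 1.56, against 1.13, 1.18, 1.504 and 1.08 in control livers. The 5 values lay close together, and control replicate 3 fell among them. The difference was 0.34 ± 0.20 (SE; limma, adjusted p = 0.749). Acot2 had 0.00, 0.26, 0.27, 0.18 and -0.09 at 1 mg/kg, against 0.29, -0.16, -0.64 and -0.30 in control livers, a difference of 0.32 ± 0.15 (SE; limma, adjusted p = 0.726). Control replicate 1 lay above all 5 of these livers and the other 3 controls lay below them.

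Vnn1 had log2 ratios of 3.68, 3.85, 2.69, 3.68 and 3.31 at 1 mg/kg, and its difference from control, 0.38 ± 0.24, was the highest of the 8 at this dose (SE; limma, adjusted p = 0.759). Acot1 gave 0.20 ± 0.30, Cyp4a14 0.17 ± 0.14, Cpt1a 0.04 ± 0.09, Cyp4a10 0.00 ± 0.15 and Ehhadh 0.00 ± 0.08 (log2 differences with SE). Of the 8 genes, 7 had a positive estimate, beside 60.4% of all genes. Among these 7 is Cyp4a10, at 0.0043, whose sign changed in 14 of 28 alternatives. None of the 8 passed the test with limma and none had an unadjusted p under 0.05, beside 0% of all genes called and 6.87% at an unadjusted p under 0.05. The median was 0.19 over the 8 genes and 0.03 over all genes.

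Between the furan doses, Pdk4 was higher at 8 mg/kg than at 1 mg/kg by an estimated 0.50 ± 0.18 (SE; limma, unadjusted p = 0.0147, adjusted p = 0.124), with the 8 mg/kg liver above on 4 of 5 slides. Acot2 gave 0.31 ± 0.14 (SE; limma, unadjusted p = 0.0442, adjusted p = 0.219), above on 5 of 5 slides. Its 8 mg/kg livers, at 0.28 to 0.94, did not overlap its 1 mg/kg livers, at -0.09 to 0.27, which 3.61% of all genes shared. For Acot1 the estimate was -0.32 ± 0.28 (SE), and the other 5 lay between -0.06 and 0.04. None of the 8 passed the adjusted test, beside 5.29% of all genes (2.42% higher and 2.87% lower), and 2 of 8 had an unadjusted p under 0.05, beside 21.4%. The comparisons share livers: control livers serve in both comparisons with control, and each dose group serves in 2.

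**Figure D3:**
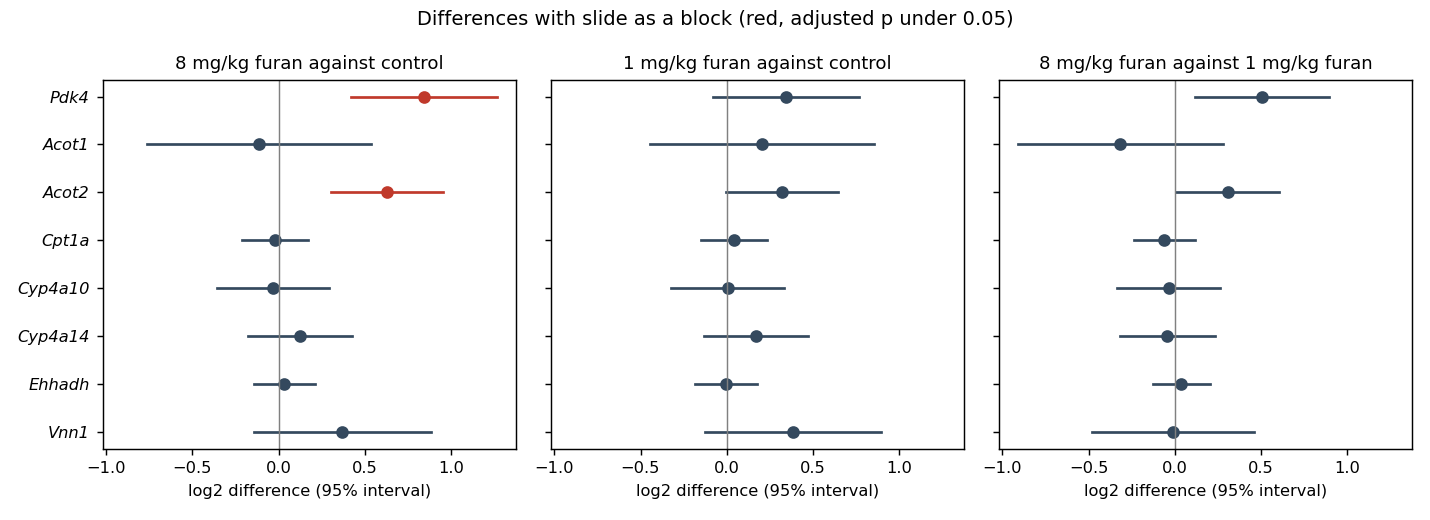
Log2 difference (x axis) with its 95% interval for each of the 8 genes (y axis), in a panel for each comparison, from the fit with slide as a block. The intervals of Pdk4 and Acot2 at 8 mg/kg against control, in red, are those with an adjusted p under 0.05, and at 1 mg/kg every interval crosses 0.

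The slide, and not the dose, took up most of the spread of 4 of the genes. Between-slide differences held 97.5% of the sum of squares of Ehhadh, 90.9% of Cyp4a10, 87.4% of Cyp4a14 and 71.8% of Cpt1a, while dose held between 0.53% and 2.89% of it in these 4. For Pdk4 the slide held 16.2% and the dose 49.9%, for Acot2 22.6% and 50.7%, for Vnn1 32.1% and 18.8%, and for Acot1 7.82% and 8.65%.

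Slide 3, which held control replicate 3, 1 mg/kg replicate 4 and 8 mg/kg replicate 2, stood apart. The hepatocyte markers stood apart with it: their mean log2 ratio was 7.88 to 8.16 on its 3 arrays, against 6.48 to 7.05 on the other 11. So did Kupffer cell and macrophage markers, at 3.60 to 3.75 against 2.81 to 3.31, and endothelial markers, at 3.12 to 3.19 against 2.39 to 3.06. The ranges of the adipose, muscle, kidney, and stellate and fibroblast lists overlapped. On slide 3 the mean log2 ratio of Cyp4a10 was 8.91, against 7.29 to 7.64 on the other 4 slides. Ehhadh averaged 5.68 on slide 3, against 4.50 to 4.94 on the others, and Cyp4a14 averaged 9.03, against 7.64 to 8.08. In the normalized liver channel Cyp4a10 was brighter on slide 3 by 1.24 on the log2 scale. In the normalized reference channel, where the same RNA lay on every array, it was dimmer by 0.25. The other 7 genes were brighter in the liver channel too, by 0.07 for Acot2 to 0.81 for Cyp4a14, and the reference channel of 5 of them was brighter by 0.33 to 0.57. For Cyp4a14 and Ehhadh, as for Cyp4a10, the reference channel was dimmer on slide 3, by 0.35 and 0.15. The loess shift is divided between the channels and arrays were not scaled to each other, so the brightness of whole arrays enters these values. What part the slide plays in these levels was not tested, and it is common to the 3 groups. Without the arrays of slide 3 the 8 mg/kg difference was 0.91 for Pdk4 (limma, adjusted p = 0.0715) and 0.52 for Acot2 (limma, adjusted p = 0.12).

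All 14 arrays had been planned for the correlations, and over them 6 of 28 pairs had an adjusted permutation p under 0.05. Because the arrays of slide 3 formed a cluster of their own, the correlations below were taken over the other 11 arrays. They cover 28 pairs, with 100000 permutations and Benjamini-Hochberg adjustment over the pairs. Pearson's r ranged over -0.68 to 0.89, and 2 pairs had an adjusted permutation p under 0.05. Cyp4a14 and Vnn1 gave r = 0.89 (permutation p = 0.00027, adjusted p = 0.00756) and Spearman's rho = 0.78 (permutation p = 0.00617, adjusted p = 0.117), and r = 0.74 without the 2 arrays farthest from the Cyp4a14 median. Cpt1a and Ehhadh gave r = 0.88 (permutation p = 0.00075, adjusted p = 0.0105) and rho = 0.74 (permutation p = 0.0129, adjusted p = 0.117), and r = 0.80 without the 2 arrays farthest from the Cpt1a median. The permutations moved values freely among the 11 arrays, so levels shared within a slide or dose group enter these p-values. With slide and dose means removed over 14 arrays, r was 0.97 for Cyp4a14 with Vnn1 and 0.92 for Cpt1a with Ehhadh. Those 2 values were not tested.

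The paralog pairs did not pass over these 11 arrays. Cyp4a10 and Cyp4a14 gave r = 0.18 over the 11 arrays (permutation p = 0.608, adjusted p = 0.849) and rho = 0.26 (permutation p = 0.446, adjusted p = 0.78), with r = 0.06 without the 2 farthest arrays. Acot1 and Acot2 gave r = 0.17 (permutation p = 0.637, adjusted p = 0.849) and rho = 0.00 (permutation p = 1, adjusted p = 1), with r = 0.38 without the 2 farthest arrays. Each pair shares its libraries, so array-wide effects enter every r.

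After slide and dose means were removed over all 14 arrays, 7 of the 7 pairs with Pdk4 were below 0, with a median r of -0.66, while 21 of the 21 pairs without it were above 0, with a median of 0.67. These are descriptions, since removing the means leaves few independent values and the 28 pairs share their arrays. Without 8 mg/kg replicate 1, in which Pdk4 was highest, 5 of the 7 Pdk4 pairs were below 0, with a median of -0.50 and a range of -0.71 to 0.28, and 0 of the other 21 were.

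**Figure D4:**
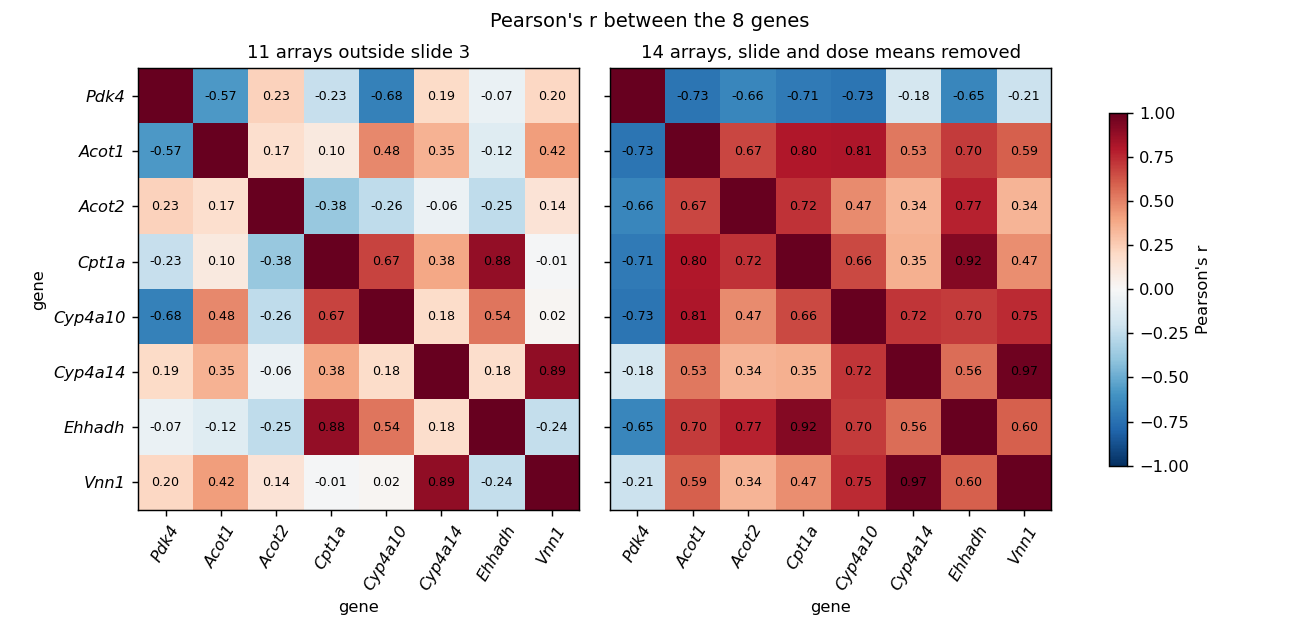
Pearson's r (colour and number) between each pair of the 8 genes (both axes), over the 11 arrays outside slide 3 on the left and over 14 arrays after slide and dose means were removed on the right. On the right the Pdk4 row lies below 0 throughout and the 21 other pairs lie above 0.

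Other genes were compared with the mean profile of the 8 after each slide was centred, over 14 arrays and 13756 named genes. The closest were 2310001K24Rik (r = 0.92), Dnmt3a (r = 0.89), Msh3 (r = 0.88), Dcaf6 (r = 0.87) and Wdr13 (r = 0.87), given as a description of these arrays. Set against the mean of the other 7, Pdk4 had r = -0.23, while each of the rest had r of 0.57 to 0.83 with the mean of its other 7. Closest to Pdk4 alone were H3f3b (r = 0.96), Dnajc15 (r = 0.96) and Sowahb (r = 0.96). These 3 were picked for following Pdk4, dose effect included, so their own dose differences are not given.

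The wider PPARA and oxidation pathway was described with 113 further genes in 7 lists by role, of which 111 were measured. Like the 8 genes, these lists and the others below were chosen with earlier results of these data known. At 8 mg/kg against control, 5 rose, 3 fell and 103 did not pass, and the median log2 difference was -0.0068. That is 8 of 111, beside 4.09% of all genes. The count was 1 without 8 mg/kg replicate 1, 2 without control replicate 1 or control replicate 3, 4 without 8 mg/kg replicate 5, and 5 without 8 mg/kg replicate 3, 8 mg/kg replicate 4 or 1 mg/kg replicate 2. It was 1 without the arrays of slide 3 and ranged over 0 to 10 in 28 alternatives. At 1 mg/kg against control 0 of 111 passed. At 8 mg/kg against 1 mg/kg, 2 were higher and 5 lower, beside 2.42% and 2.87% of all genes. That count of 7 became 3 without 8 mg/kg replicate 1 or 1 mg/kg replicate 1, and 12 without 8 mg/kg replicate 4.

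Among 14 regulators of PPARA signalling, 1 rose at 8 mg/kg. Ncor1, a corepressor of nuclear receptors, was 0.15 ± 0.12 in 8 mg/kg livers (SD, n = 5) and -0.23 ± 0.09 in control livers (SD, n = 4), a difference of 0.42 ± 0.08 (SE; limma, adjusted p = 0.0154). It was also higher at 8 mg/kg than at 1 mg/kg, by 0.36 (limma, adjusted p = 0.0178). The call against control held in 19 of 28 alternatives, and with the mean over its probes the difference was 0.25 (limma, adjusted p = 0.107). Rxrb, a partner receptor, gave 0.23 (limma, adjusted p = 0.159), Hdac3, a deacetylase that works with Ncor1, gave -0.23 (limma, adjusted p = 0.174), and Lpin1, a coactivator and phosphatidate phosphatase, gave -0.49 (limma, adjusted p = 0.352).

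Of 24 genes of mitochondrial import and beta-oxidation, 1 rose at 8 mg/kg. Hadh, the short-chain hydroxyacyl-CoA dehydrogenase, was 2.98 ± 0.18 in 8 mg/kg livers (SD, n = 5) and 2.71 ± 0.01 in control livers (SD, n = 4), a difference of 0.32 ± 0.08 (SE; limma, adjusted p = 0.0477). That call held in 4 of 28 alternatives and in 0 of the 14 that left out a replicate, and in the liver channel alone Hadh was 0.19 (limma, adjusted p = 0.206). The acyl-CoA dehydrogenases gave estimates of opposite sign that missed the threshold, Acadm 0.34 (limma, adjusted p = 0.0677) and Acads -0.41 (limma, adjusted p = 0.054). Eci2, an enoyl-CoA isomerase, gave 0.35 (limma, adjusted p = 0.0851).

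Of 22 peroxisomal genes, 1 fell at 8 mg/kg against control. Nudt7, a hydrolase of coenzyme A, fell to 5.86 ± 0.34 in 8 mg/kg livers (SD, n = 5), against 6.53 ± 0.31 in control livers (SD, n = 4), a difference of -0.52 ± 0.10 (SE; limma, adjusted p = 0.0113), called in 23 of 28 alternatives. Nudt7 was also lower at 8 mg/kg than at 1 mg/kg, by 0.47 on the log2 scale (limma, adjusted p = 0.0107), and Ech1, a dienoyl-CoA isomerase, was lower by 0.33 in the same comparison (limma, adjusted p = 0.0346). Those calls against 1 mg/kg held in 23 of 28 alternatives for Nudt7 and 13 of 28 for Ech1. Acaa1b, a thiolase, gave -0.27 against control (limma, adjusted p = 0.142), and Crot, which makes carnitine esters for export to mitochondria, gave 0.42 (limma, adjusted p = 0.225).

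None of the 9 omega-oxidation genes passed in any comparison. The smallest p at 8 mg/kg against control belonged to Cyp4f15, at -0.24 (limma, adjusted p = 0.121), Cyp4f14, at -0.20 (limma, adjusted p = 0.212), and Cyp4f13, at -0.22 (limma, adjusted p = 0.296). In the ketogenesis list of 5 genes, Oxct1, which takes up ketone bodies into energy metabolism outside liver, gave 0.15 (limma, adjusted p = 0.502), and Bdh1, which interconverts the ketone bodies, gave -0.06 (limma, adjusted p = 0.766).

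Of 13 genes of uptake, binding and activation, 1 fell. Fabp2, an intracellular fatty acid binding protein, fell to 7.53 ± 0.39 in 8 mg/kg livers (SD, n = 5), against 8.15 ± 0.59 in control livers (SD, n = 4), a difference of -0.55 ± 0.11 (SE; limma, adjusted p = 0.0129). It was lower against 1 mg/kg as well, by 0.56 (limma, adjusted p = 0.00554). The call against control held in 18 of 28 alternatives, and with the processed signals Fabp2 was -0.29 (limma, adjusted p = 0.358) against control and -0.23 (limma, adjusted p = 0.431) against 1 mg/kg. Cd36, a fatty acid translocase, gave 0.45 (limma, adjusted p = 0.0563), and Acsl4, an acyl-CoA synthetase, gave 0.29 (limma, adjusted p = 0.0994).

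Of 27 other PPARA targets, 25 were measured, 2 rose and 1 fell. Cidec, a lipid droplet protein, was 2.86 ± 0.48 in 8 mg/kg livers (SD, n = 5) and 1.65 ± 0.21 in control livers (SD, n = 4), a difference of 1.30 ± 0.26 (SE; limma, adjusted p = 0.014). Lpl, which releases fatty acids from triglyceride in blood, was 0.12 ± 0.44 in 8 mg/kg livers (SD, n = 5) and -0.80 ± 0.19 in control livers (SD, n = 4), a difference of 0.96 ± 0.19 (SE; limma, adjusted p = 0.0147). The calls held in 21 of 28 alternatives for Cidec and 22 of 28 for Lpl. Both genes are also expressed by fat cells. Of 9 adipose markers, 4 were measured, and Adipoq, Plin1, Lep, Retn and Trarg1 did not pass the filter on dim probes. The mean log2 ratio of those 4 ranged over 0.78 to 1.80 in 8 mg/kg livers, 0.94 to 2.81 in 1 mg/kg livers and 0.79 to 0.97 in control livers, and the part of adipose tissue in these results was not tested.

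Vnn3, a pantetheinase like Vnn1, fell by 0.54 on the log2 scale (SE 0.14; limma, adjusted p = 0.0386) at 8 mg/kg against control, and was lower against 1 mg/kg by 0.56 (limma, adjusted p = 0.0203). The call against control held in 13 of 28 alternatives, and with the processed signals the difference from 1 mg/kg was -0.07 (limma, adjusted p = 0.772). Vnn1 gave the estimate of 0.37 described above. Fgf21, a hormone released by liver on fasting, gave 0.85 ± 0.23 (SE; limma, adjusted p = 0.0569), and Ucp3, a mitochondrial carrier, gave 0.35 (limma, adjusted p = 0.0754).

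**Figure D5:**
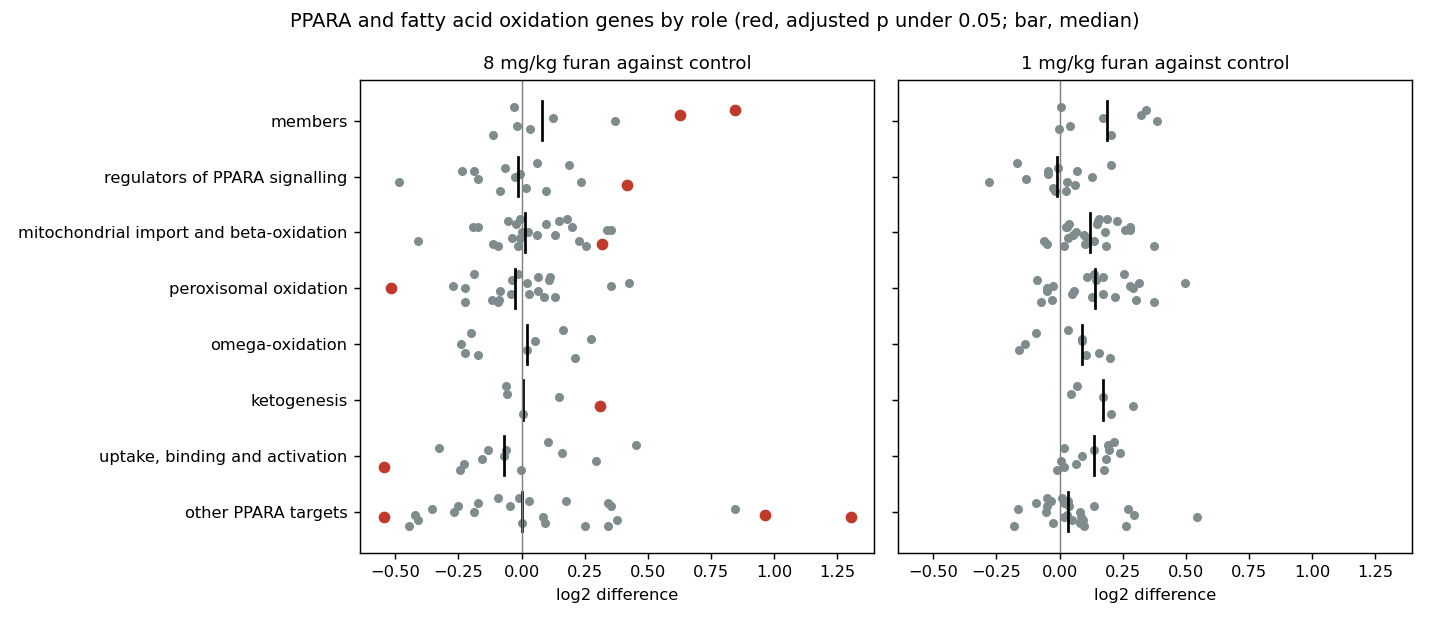
Log2 difference (x axis) of each measured gene of the 8 targets and of 7 lists of related genes (y axis), at 8 mg/kg against control on the left and at 1 mg/kg against control on the right; bars are list medians and red points have an adjusted p under 0.05. At 8 mg/kg the red points lie on both sides of 0, and at 1 mg/kg there are none.

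At 1 mg/kg, 83 of the 111 related genes (74.8%) had an estimate above 0, beside 60.4% of all genes, and the median was 0.08 beside 0.03. This included 22 of 24 mitochondrial genes and 12 of 13 genes of uptake, binding and activation, but 6 of 14 regulators and 17 of 25 other PPARA targets. Marker lists outside the pathway were also mostly above 0. They gave 7 of 8 for Kupffer cells and macrophages, 7 of 8 for stellate cells and fibroblasts, 6 of 7 for endothelium and 7 of 12 for hepatocytes. The share among the 111 varied with the processing. It was 54.1% with the scanner's processed signals (54.1% of all genes), 57.7% with the authors' deposited ratios (52.8%) and 50.5% with the liver channel alone (52.4%). Without the slide block it was 64% (58.5% of all genes), and with a normexp offset of 16 it was 64% (57.6%). None of the 111 passed the test at this dose with limma, under any of the 28 alternatives.

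Of 9 other genes of pyruvate dehydrogenase and its kinases and phosphatases, 0 passed at 8 mg/kg. Pdk1 gave -0.34 (limma, adjusted p = 0.0917), Pdk2 gave -0.29 (limma, adjusted p = 0.123) and the phosphatase Pdp2 gave -0.15 (limma, adjusted p = 0.372). Of 18 genes that respond to fasting or glucocorticoids, 1 rose: Igfbp1, a secreted binding protein of insulin-like growth factors, by 1.10 ± 0.21 (SE; limma, adjusted p = 0.0125). That call held in 22 of 28 alternatives, and with the processed signals Igfbp1 was 0.22 (limma, adjusted p = 0.562). Sds, a serine dehydratase, gave -0.26 (limma, adjusted p = 0.137), Klf9, a transcription factor, gave 0.26 (limma, adjusted p = 0.194), and G6pc, the last enzyme of glucose release, gave -0.16 (limma, adjusted p = 0.275).

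Fatty acid synthesis, the opposing pathway, had 3 of 20 genes lower and 0 higher at 8 mg/kg against control, with a median of -0.34, beside 1.36% of all genes lower and 2.73% higher. Acacb, whose product malonyl-CoA inhibits CPT1, fell to 2.96 ± 0.13 in 8 mg/kg livers (SD, n = 5), against 3.86 ± 0.40 in control livers (SD, n = 4), a difference of -0.88 ± 0.13 (SE; limma, adjusted p = 0.00195). Elovl3, a fatty acid elongase, fell by 0.94 (limma, adjusted p = 0.0124), and was well above background on 4 of 5 arrays at 8 mg/kg. Pklr, the liver pyruvate kinase, fell by 0.57 (limma, adjusted p = 0.0312). Against 1 mg/kg, 5 of 20 were lower, beside 2.87% of all genes: these 3, with Dgat2, which makes triglyceride, lower by 0.46 (limma, adjusted p = 0.015), and Fads1, a desaturase, lower by 0.30 (limma, adjusted p = 0.0384). Fasn, the fatty acid synthase, gave -0.89 against control (limma, adjusted p = 0.0689), and Scd2, a desaturase, gave 0.54 (limma, adjusted p = 0.0803). The Acacb call at 8 mg/kg against control held in 28 of 28 alternatives, that of Elovl3 in 23 of the 27 it could be fitted in and that of Pklr in 12 of 28. Against 1 mg/kg the call held in 27 of 28 for Acacb, 19 of 27 for Elovl3 and 23 of 28 for Dgat2. It held in 12 of 28 for Fads1 and 10 of 28 for Pklr. With the scanner's processed signals Pklr was -0.33 against control and 0.20 against 1 mg/kg (limma, adjusted p = 0.739 and 0.837), and Elovl3 was -1.95 against control (limma, adjusted p = 0.144).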

How the data were processed

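The 14 scanner files held spot and local background intensities of both channels, which the authors read with Feature Extraction 10.7.3.1, per the file headers. The authors' deposited table of linear ratios (liver over reference; log2 values matched those computed here at r = 0.992 to 0.995) served as an alternative, and how it was normalized is not stated in the sources used here.

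Median intensities were corrected with normexp (offset 50) and normalized by loess within arrays in limma 3.58.1 (R 4.3.3), with 3671 control spots given no weight and outlier spots left out. Probes well above background in the liver channel on at least 4 arrays were kept (28867 of 55681). The probe brightest in the liver channel stood for a gene. Of the probes, 26413 were named through the RefSeq table of GRCm38.p6. One fit over all 14 arrays had dose and slide as terms, with Benjamini-Hochberg adjustment over 21976 genes and a threshold of 0.05. It was tested on simulated data.

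Members and lists were chosen with earlier results of these data known. From each list, every called gene and up to 3 further genes with the smallest p at 8 mg/kg were named. Replicate numbers were not used to pair mice, because the labels do not say whether a number marks anything shared. Same-numbered arrays' deviations from group means correlated at -0.42 to 0.25. Slide effects were left in these values, so they cannot decide whether the mice were paired. The alternatives for the 111 related genes and the other lists were added after seeing the data. Results for a few genes of the lists are not reported here, though the lists' counts include them.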

Additional observations from a re-analysis of the deposited data

Results flagged for a closer look

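In each of 24 groups (8 genes in 3 dose groups) the highest and lowest liver were compared with the rest, and 4 values stood far from the others of their group. Chance flags about 1 in 20 groups. Acot2 was 0.94 in 8 mg/kg replicate 5, with the other 4 livers at 0.28 to 0.35. Cyp4a14 was 9.31 in 8 mg/kg replicate 2, with the others at 7.65 to 7.95. Cyp4a10 was 8.99 in 1 mg/kg replicate 4, with the others at 7.16 to 7.57, and 8.63 in control replicate 3, with the others at 7.51 to 7.57. The last 3 arrays were those of slide 3.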

How the results depend on the processing

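The counts, the 8 genes and the called genes of the other lists were refitted under 28 alternatives; the correlations were not. The direction of Pdk4 and Acot2 at 8 mg/kg against control held in all 28 (log2 difference 0.57 to 1.02 and 0.50 to 0.99), with each called in 16. Those 16 are not independent support. They include Aquantile, both changes of the filter on dim probes and the mean over probes, which leave the estimates of these single-probe genes unchanged. Omissions of a 1 mg/kg liver, which act only through the shared fit, are also among them. Counts out of 28 for other genes likewise include Aquantile and omissions outside the comparison. Both calls were lost, leaving 0 of 8 genes called, without the slide block, with only the arrays of the groups compared, with a normexp offset of 16, with the scanner's processed signals and without slide 3; the liver channel alone left 1, Acot2. Leaving out a replicate gave 0 to 2. In these settings the genes called at 8 mg/kg against control numbered 273, 302, 510, 389 and 399, and 315 to 869 on leaving out a replicate, against 898. At 8 mg/kg against 1 mg/kg they numbered 297 without the slide block (184 higher, 113 lower), 430 with the processed signals (277 higher, 153 lower) and 693 with the liver channel alone, and 418 to 1251 on leaving out a replicate, against 1162 (531 higher, 631 lower). At 1 mg/kg against control 1 gene was called without background correction, with an offset of 16, without a filter on dim probes and with the authors' ratios, and 0 to 3 on leaving out a replicate. No member was called in either of the other 2 comparisons under any alternative. With the replicate number as a block in place of the slide, 122 genes were called at 8 mg/kg against control, 150 against 1 mg/kg, and 0 members. The labels do not say whether these numbers pair the mice. The cause of these shifts was not tested. Aquantile leaves ratios unchanged by construction.

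Estimates near 0, none of them called, changed sign as follows (log2 differences). Without the slide block, with the replicate block and with the slide as a random block, Ehhadh at 8 mg/kg against control was -0.068, -0.038 and -0.022, and Cyp4a10 at 1 mg/kg -0.082, -0.028 and -0.042. Without background correction Cyp4a10 at 1 mg/kg was -0.045. With an offset of 16, Ehhadh at 8 mg/kg was -0.0012, Cpt1a and Cyp4a10 at 1 mg/kg -0.0050 and -0.072, and Cyp4a14 at 8 against 1 mg/kg 0.00046. With the processed signals, Cyp4a14 and Ehhadh at 8 mg/kg were -0.074 and -0.039, Cpt1a, Cyp4a10 and Cyp4a14 at 1 mg/kg -0.033, -0.14 and -0.17, and Cyp4a14 and Vnn1 at 8 against 1 mg/kg 0.10 and 0.019. With the authors' ratios, Cpt1a and Ehhadh at 8 mg/kg were 0.0064 and -0.031, Cyp4a10 at 1 mg/kg -0.14, and Cpt1a and Cyp4a14 at 8 against 1 mg/kg 0.0011 and 0.0077. With the liver channel alone, Cyp4a10 and Cyp4a14 at 8 mg/kg were 0.10 and -0.022, Cpt1a and Ehhadh at 1 mg/kg -0.020 and 0.12, and Ehhadh and Vnn1 at 8 against 1 mg/kg -0.0093 and 0.074. With the mean over probes, Cyp4a10 was 0.018 at 8 mg/kg and 0.0082 at 8 against 1 mg/kg. Without slide 3, Cyp4a14 and Ehhadh at 8 mg/kg were -0.027 and -0.000058, and Acot1, Cpt1a and Cyp4a10 at 1 mg/kg -0.18, -0.054 and -0.12.

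Leaving out a replicate gave, at 8 mg/kg against control, -0.44 to 0.16 for Acot1, -0.088 to 0.035 for Cpt1a, -0.17 to 0.16 for Cyp4a10 and -0.016 to 0.096 for Ehhadh. At 1 mg/kg it gave -0.12 to 0.52 for Acot1, -0.033 to 0.096 for Cpt1a, -0.14 to 0.11 for Cyp4a10 and -0.052 to 0.060 for Ehhadh. At 8 against 1 mg/kg it gave -0.086 to 0.0057 for Cpt1a, -0.12 to 0.13 for Cyp4a10, -0.14 to 0.036 for Cyp4a14 and -0.20 to 0.10 for Vnn1. All 8 genes were well above background on every array.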
